A study of Mus musculus with 12 samples.

Results

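Gene expression in whole brain and whole spleen of wild-type mice was compared across every gene with a mean of 1 FPKM or more over 3 brain and 3 spleen libraries, which held for 14216 of the 24062 genes listed in both tables. FPKM is read coverage per kilobase of transcript, scaled to the number of reads in each library on its own. Another 3479 genes were at 0 in all 6 libraries. The 6 libraries are part of a series of 12, in which RNA of both tissues was sequenced from *Norad*+/+ mice and from mice lacking *Norad*, an abundant long noncoding RNA that binds PUMILIO proteins. All mice were C57BL/6 males of 10 weeks. The groups used here were *Norad*+/+ brain, *Norad*+/+ spleen, *Norad*-/- brain and *Norad*-/- spleen, each of 3 libraries. *Norad*-/- mice carry a deletion of the *Norad* sequence made by CRISPR/Cas9 and come from independent founder lines, and the libraries are not tied to a line. The study used 3 mice per genotype, so a brain and a spleen library may come from the same mouse, which the sample labels do not say, and p-values measure the spread between these libraries. Brain and spleen values stood in separate tables, so a level in one tissue against the other rests on the scaling of each library to its own depth. At the filter, *Smpdl3b*, *Apol7e* and *Pgbd1* lay just outside, with means of 0.9992 to 0.9998 FPKM, and *Dgkk*, *Dcdc2a* and *Sebox* just inside, with 1.0019 to 1.0027.

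The brain is built of neurons, which signal through synapses, of myelin-forming oligodendrocytes, astrocytes and resident macrophages called microglia, and of vessels sealed by a blood-brain barrier. The spleen combines white pulp, where B and T lymphocytes meet antigen, with red pulp, where macrophages clear old red cells and recycle their iron. In the mouse it also makes blood cells in adult life, so it holds dividing red cell and granulocyte precursors and megakaryocytes. A library of a whole organ averages over all of these cells, and fewer cells of a type cannot be told apart from less RNA per cell.

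As estimated from the FPKM that 1 read is worth, the numbers of reads in the 3 brain libraries were 35000000, 36700000 and 28400000, and in the 3 spleen libraries 31600000, 32500000 and 33800000. Between 49.6% and 53.1% of low values were whole multiples of 1 read within 2%, so these depths are estimates. Labels matched the marker genes of each tissue in all 6 libraries. The summed FPKM of 5 neuron markers (*Snap25*, *Syt1*, *Stmn2*, *Rbfox3* and *Nefl*) was 1634 to 2335 in brain and 2.21 to 15.7 in spleen. The summed FPKM of 4 B cell markers (*Ms4a1*, *Cd79a*, *Cd79b* and *Pax5*) was 977 to 1160 in spleen and 0.480 to 3.03 in brain. Brain replicate 3 stood apart from its group. Of 8872 genes with a mean of 5 FPKM or more, 478 lay over 2-fold from both other brain libraries in it, against 74 and 70 in replicates 1 and 2. Spleen replicate 1 had 222 such genes of 8916, 201 of them lower, against 63 and 103 in the other spleen libraries.

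Each tissue also held a low level of genes that belong to the other, and this level was not even between libraries. Over 66 genes of neurons, myelin and astrocytes that were at least 64-fold higher in brain, the median spleen level was 0.178%, 0.0539% and 1.03% of the brain level in spleen replicates 1, 2 and 3. Spleen replicate 3 held the highest level of the group for 66 of the 66 genes. In the 3 *Norad*-/- spleens the same median was 0.0556%, 0.0835% and 0.0527%. Spleen replicate 3 further carried digestive and liver transcripts, with 0, 0 and 80.4 FPKM of the pancreatic protease precursor *Ctrb1* in the 3 spleens. Of 12 tested genes of pancreas, liver and skeletal muscle, 11 did not pass and *Tnnt3*, a muscle troponin, was higher in spleen. The median log2 difference of that list, -2.65, was 0 without spleen replicate 3. In the other direction, 81 genes of blood and immune cells stood in brain at a median of 0.142%, 0.380% and 0.170% of the spleen level in brain replicates 1, 2 and 3, and replicate 2 was highest for 69 of the 81. Among the 16 B cell genes of that set, it was highest for 16. The counts of genes higher in brain or in spleen over all genes tested were also taken without brain replicate 2 and spleen replicate 3. So were the medians of gene lists given below, and where that matters both are given. The counts of list members that passed were not taken again. The part of these 2 libraries in each low level was not tested.

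**Figure D1:**
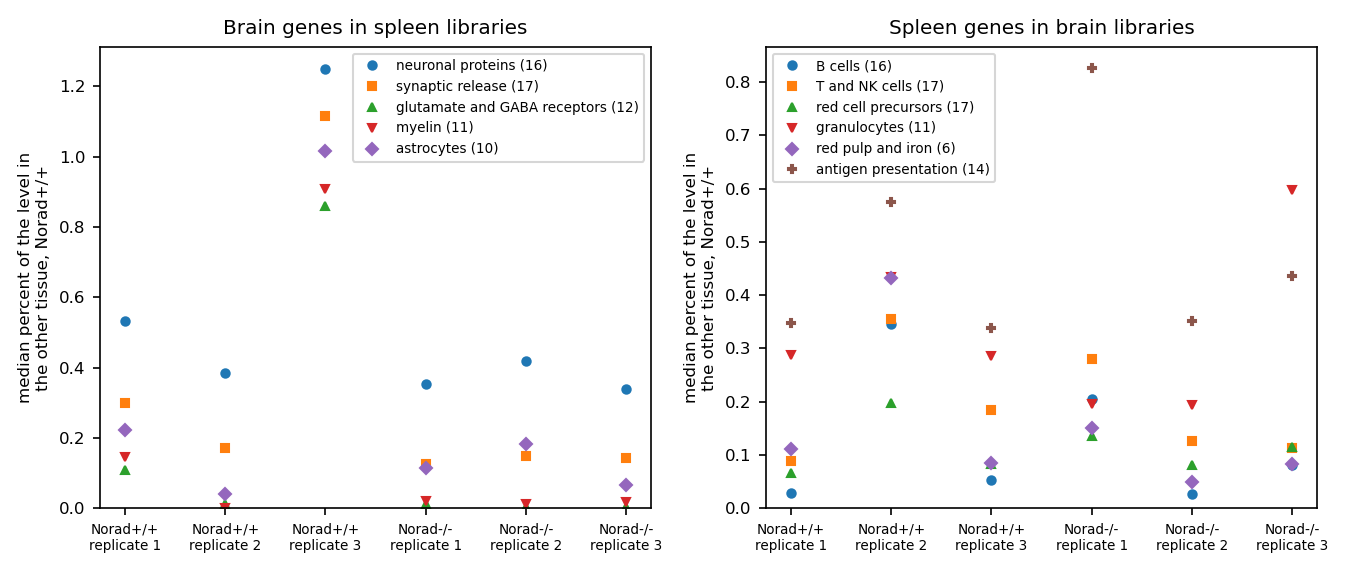
Median level of brain genes in the 6 spleen libraries (left) and of spleen genes in the 6 brain libraries (right), as a percent of the mean level in the other tissue of *Norad*+/+ mice, for each gene list with its number of genes. *Norad*+/+ spleen replicate 3 lies above the other spleens for all 5 brain lists, at 0.860% to 1.25%, and *Norad*+/+ brain replicate 2 is the highest *Norad*+/+ brain for all 6 spleen lists.

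The tissues differed at most of the genes tested. With limma on log2(FPKM + 0.1), 5032 genes (35.4%) passed an adjusted p threshold of 0.05 with a higher level in brain, 6197 (43.6%) with a higher level in spleen, and 2987 passed in neither direction. Of the genes that passed, 2913 (20.5% of those tested) were at least 4-fold higher in brain and 2520 (17.7%) at least 4-fold higher in spleen. At 16-fold and more the counts were 1650 and 1133, at 64-fold 691 and 418, and at 256-fold 115 and 90. All differences below are brain minus spleen on this log2 scale, so a positive value means a higher level in brain, and the added 0.1 FPKM understates the differences of genes near or below that level. The median of all differences was -0.24, with quartiles at -1.36 and 1.37. After rescaling every library to TPM, which gives all libraries the same sum, that median was -0.04. With that scaling 5452 genes passed with a higher level in brain and 5484 with a higher level in spleen. Without a fold limit the larger count for spleen thus shrank with that scaling but stayed. At 4-fold and more the counts were 3130 and 2326, with brain the larger under both scalings. The filter itself selects for differences, since a gene near 0 in one tissue passed only if it was high in the other. Among the 10014 genes with at least 1 FPKM in every library, 843 were at least 4-fold higher in brain and 1023 in spleen. Conversely, 637 of the 2913 brain genes had a mean under 0.1 FPKM in spleen, and 402 of the 2520 spleen genes had one in brain.

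The same contrast was read in mice that the choice of genes did not use. In *Norad*-/- brain and spleen, 2908 of the 2913 brain genes and 2512 of the 2520 spleen genes differed in the same direction. The 4-fold call was made again for 2787 (95.7%) and 2184 (86.7%) of them, where 21.1% and 16.3% of all genes tested had such a call in *Norad*-/- mice. Over all genes, the differences in the 2 genotypes had a Pearson r of 0.983, a description across genes, which are not independent replicates and partly share their length, base composition and annotation. A test of whether the difference itself changed with genotype, as the interaction of tissue and genotype over 12 libraries, called 0 genes with limma. At an unadjusted p below the threshold it had 2106 (14.8%). Without *Norad*-/- spleen replicate 3 it called 341 genes and without *Norad*+/+ spleen replicate 1 it called 33, while leaving out any other library gave 0 to 15. The 2 genes with the smallest adjusted p, 0.0754, were the vesicle GTPase *Rab31* and *Nfatc2*, a calcium-driven factor of T cells. *Rab31* had 16.1, 17.6 and 13.4 FPKM in brain and 7.86, 9.27 and 9.24 in spleen in *Norad*+/+ mice, a difference of 0.83, and 31, 30.8 and 32.5 in brain and 6.23, 6.98 and 7.45 in spleen in *Norad*-/- mice, a difference of 2.18. *Nfatc2* had 3.35, 3.78 and 2.68 FPKM in brain and 4.43, 4.83 and 4.57 in spleen in *Norad*+/+ mice (-0.50), and 1.48, 1.82 and 1.94 in brain and 7.80, 10.4 and 7.94 in spleen in *Norad*-/- mice (-2.25). Both thus had the same sign and a larger difference in *Norad*-/- mice, and neither passed.

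**Figure D2:**
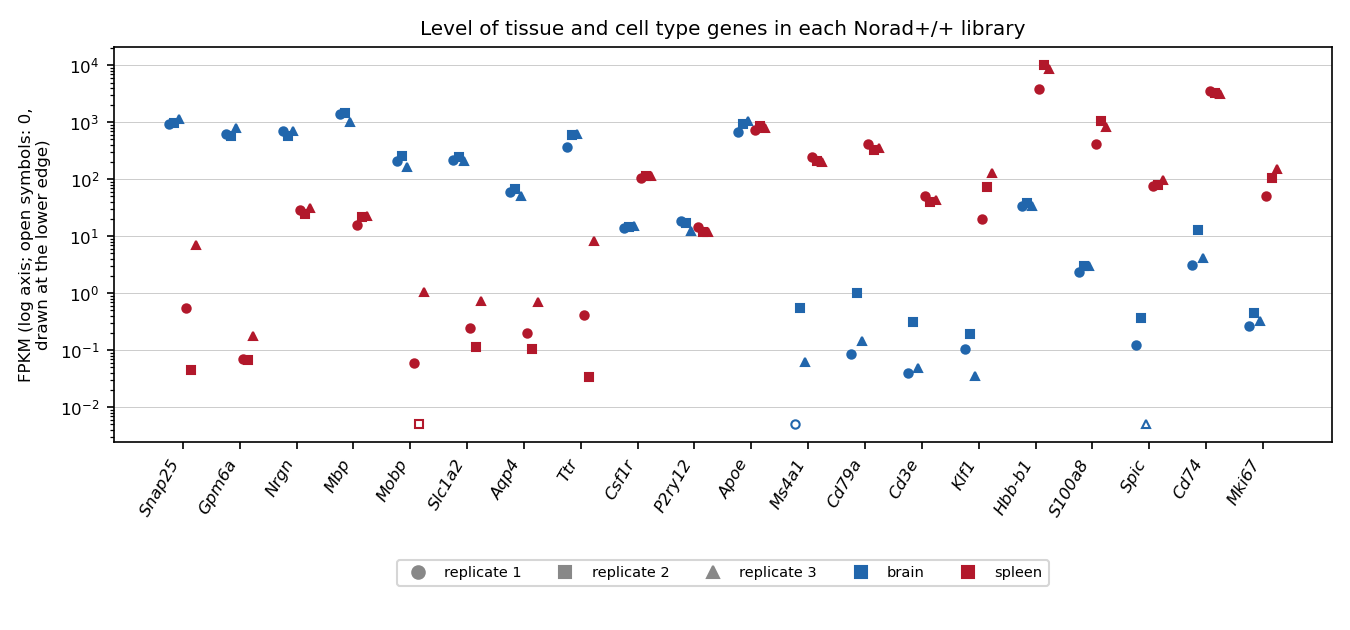
FPKM of genes of brain and spleen cell types in the 3 brain (blue) and 3 spleen (red) *Norad*+/+ libraries, on a log axis, with the symbol giving the replicate and an open symbol marking a value of 0. Brain and spleen do not overlap except at *P2ry12* and *Apoe*, and spleen replicate 3 (triangle) is the highest spleen library for *Snap25*, *Mobp* and *Slc1a2*.

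Genes at the 2 ends of the ranking are shown first, with the start of the gene in the genome. *Gpm6a*, a membrane glycoprotein of neurons related to the myelin proteolipid, had 620.1, 580.2 and 806 FPKM in the 3 brains and 0.0693, 0.0660 and 0.179 in the 3 spleens. Its difference of 11.70 (standard error 0.24, adjusted p = 5.96e-07 with limma) was the largest of the genes with at least 5 FPKM in every brain library, and all 3 spleens lay below 0.2 FPKM. *Bex2*, an X-linked gene named for its expression in brain, had 314, 286 and 1708 FPKM in brain and 0.309, 0.0341 and 3.82 in spleen. Brain replicate 3 held over 5 times the level of the others here, and the spleens spread over 100-fold. The difference of 9.80 had a standard error of 1.30. At the other end, *Cd79a*, the signalling chain of the B cell receptor, had 0.0857, 1.02 and 0.143 FPKM in brain and 421, 325 and 359.6 in spleen, a difference of -9.95 (standard error 0.65). *Igj*, the J chain that joins IgM and IgA into polymers in plasma cells, had 0.186, 0.699 and 0.215 FPKM in brain and 264, 474 and 431 in spleen, a difference of -9.83 (standard error 0.43). Brain replicate 2 was the highest brain library for both. Promoters of these 4 genes follow, to show the sequence at genes that lie at opposite ends of the same comparison. Each is 300 bases from the RefSeq table for GRCm38.p6, 250 before and 50 from the annotated start, in the direction of the gene, and lies at chr8:54779184-54779483 (+) for *Gpm6a*, chrX:136068187-136068486 (-) for *Bex2*, chr7:24897247-24897546 (+) for *Cd79a* and chr5:88527848-88528147 (-) for *Igj*. Capitals mark every match on either strand to TATAAA (the TATA box), GGAAG (the core bound by ETS factors) or TGACG (one arm of the cyclic AMP response element), none of which overlap here.
Gpm6a: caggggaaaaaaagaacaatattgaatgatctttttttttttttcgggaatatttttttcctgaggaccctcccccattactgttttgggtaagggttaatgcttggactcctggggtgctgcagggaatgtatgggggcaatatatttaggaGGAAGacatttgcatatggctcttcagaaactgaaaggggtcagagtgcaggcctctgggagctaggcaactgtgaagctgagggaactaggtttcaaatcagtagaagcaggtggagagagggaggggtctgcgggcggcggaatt
Bex2: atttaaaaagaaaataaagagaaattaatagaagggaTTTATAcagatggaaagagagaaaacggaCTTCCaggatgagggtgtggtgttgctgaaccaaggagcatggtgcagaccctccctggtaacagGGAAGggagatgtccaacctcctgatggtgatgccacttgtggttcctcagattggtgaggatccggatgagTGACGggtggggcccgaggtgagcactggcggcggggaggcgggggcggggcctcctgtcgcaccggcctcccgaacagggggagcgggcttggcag
Cd79a: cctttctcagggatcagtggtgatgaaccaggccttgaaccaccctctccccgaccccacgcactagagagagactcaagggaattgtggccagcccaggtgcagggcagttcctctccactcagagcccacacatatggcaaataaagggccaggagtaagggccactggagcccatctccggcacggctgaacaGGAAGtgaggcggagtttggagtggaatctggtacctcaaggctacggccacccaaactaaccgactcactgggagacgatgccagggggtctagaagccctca
Igj: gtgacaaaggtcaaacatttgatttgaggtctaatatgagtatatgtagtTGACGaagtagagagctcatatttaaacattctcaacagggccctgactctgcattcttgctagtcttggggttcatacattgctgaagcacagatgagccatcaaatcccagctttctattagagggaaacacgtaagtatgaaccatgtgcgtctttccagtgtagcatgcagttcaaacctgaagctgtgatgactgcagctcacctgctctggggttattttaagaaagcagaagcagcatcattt
The *Bex2* promoter held all 3 motifs, with 1 TATAAA, 2 GGAAG and 1 TGACG, and 12 CG dinucleotides. The *Gpm6a* promoter held 1 GGAAG and 4 CG, the *Cd79a* promoter 1 GGAAG and 8 CG, and the *Igj* promoter 1 TGACG and 3 CG. Over 27025 promoters of the same table and length, 14.2% hold TATAAA, 71.1% GGAAG and 20.9% TGACG on either strand, with a median of 7 CG, so that GGAAG is no mark of these genes. A comparison of promoters between all brain and all spleen genes is void, because 77.1% of the genes tested had an entry in the table, below the 80% needed.

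Outside the cell type lists, abundant transcripts that differed included ion pumps and secreted proteins in brain and blood cell proteins in spleen. Among the 15 genes of highest level in brain that were at least 16-fold apart, the sodium pump subunit *Atp1b1* serves to restore the ion gradients that neurons discharge. *Atp1b1* had 822, 818 and 592 FPKM in brain, lowest in replicate 3, and 20.5, 17.3 and 19.5 in spleen. *Sparcl1*, a matrix protein that astrocytes secrete, had 906, 1091 and 1379 FPKM in brain and 29.6, 31.2 and 39.2 in spleen. Carboxypeptidase E (*Cpe*), which trims peptide hormones, had 564, 567 and 745 FPKM in brain and 3.98, 3.18 and 9.15 in spleen. *Vsnl1*, a neuronal calcium sensor, differed by 9.56 and *Pcsk1n*, an inhibitor of prohormone cleavage, by 9.48, with brains that spread over 2-fold in both. On the spleen side lysozyme (*Lyz2*), an antibacterial enzyme of myeloid cells, had 9.31, 16.9 and 11.4 FPKM in brain and 1428, 1517 and 1490.0 in spleen, a difference of -6.91 (standard error 0.23). The small surface protein *Cd52* of lymphocytes had 2.41, 5.59 and 1.77 FPKM in brain and 1423, 1124 and 1129 in spleen, and *Arhgdib*, a GTPase inhibitor of blood cells, 14.5, 15.6 and 13.8 FPKM in brain and 836, 886 and 866 in spleen. *Gpx1*, a peroxidase that red cells use, had 69.1, 42 and 63 FPKM in brain and 671, 1015 and 1548 in spleen, and its spleen values ran in the order of the red cell markers. *Plac8*, a small protein of myeloid and lymphoid cells, differed by -9.77.

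Genes of neurons made up the clearest group on the brain side. All 19 genes of neuronal structure and identity, all 23 genes of transmitter release and all 16 receptor subunits for glutamate and GABA were at least 4-fold higher in brain, where 20.5% of all genes tested had that call. Their median differences were 6.97, 7.07 and 7.73, and 7.42, 7.64 and 8.04 without the 2 libraries that held most signal of the other tissue. *Snap25*, a core protein of synaptic vesicle fusion, had 926, 988 and 1148 FPKM in brain and 0.560, 0.0452 and 7.02 in spleen. Its difference of 10.17 (standard error 1.29, adjusted p = 0.000304 with limma) carried a large error, as the spleens ran over 100-fold from replicate 2 to replicate 3, while the brains were close together. The vesicle protein synaptophysin (*Syp*) had 417, 411 and 566 FPKM in brain and 2.53, 2.17 and 6.66 in spleen. *Cplx1*, which clamps vesicles before release, had 394, 424 and 639.8 FPKM in brain and 0.358, 0.0561 and 3.90 in spleen, a difference of 9.49. Replicate 3 was again the highest spleen for both, and no spleen value came near a brain value.

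The smallest differences among release genes lay at proteins that other cells use for membrane traffic as well. *Nsf*, the ATPase that takes fusion complexes apart in all cells, had 222, 227 and 256 FPKM in brain and 24.5, 23.4 and 27 in spleen, a difference of 3.23 (standard error 0.13). The vesicle SNARE *Vamp2* had 1147, 1088 and 570.5 FPKM in brain and 105, 80.5 and 85.6 in spleen, a difference of 3.31. Vesicular transporters, which load transmitter and set what a neuron releases, were far lower in spleen. The glutamate transporter *Slc17a7* had 205, 210.4 and 165 FPKM in brain and 0.193, 0.0105 and 2.16 in spleen, and the GABA and glycine transporter *Slc32a1* had 35, 39 and 28.6 FPKM in brain and 0.0213, 0.0436 and 0.274 in spleen. In both the 3 brains lay within 1.5-fold of each other.

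Among receptors, subunits of the AMPA type (*Gria1* to *Gria4*) differed by 8.46, 8.08, 4.84 and 7.60. *Gria3* stood out by its spleen level, with 1.52, 1.43 and 1.69 FPKM in the 3 spleens against 44.2, 40 and 57.7 in brain, and these spleen values were even. *Grin1*, the subunit that every NMDA receptor needs, had 142, 129.9 and 133 FPKM in brain and 0.140, 0.0280 and 1.41 in spleen. *Gabrb1*, a subunit of the GABA-A type, was uneven between brains, at 58.8, 34 and 9.78 FPKM, with replicate 3 lowest, and its difference was 7.85. *Gabbr1*, of the metabotropic GABA-B receptor, had 19.2, 17.1 and 17.1 FPKM in the spleens and 170.3, 165 and 144 in the brains, a difference of 3.16.

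Of the structural genes, the neurofilament *Nefl* had 153, 162 and 389 FPKM in brain and 0.207, 0 and 1.44 in spleen, and *Nefm* 154, 160.5 and 435 FPKM in brain and 0.117, 0.00952 and 1.07 in spleen. Brain replicate 3 held over 2-fold more of both than the other brains. *Map2* of dendrites and *Mapt*, the tau protein of axons, were even between brains, at 169.7, 163 and 160.4 and 114, 111 and 84.7 FPKM, and differed by 6.97 and 6.92. *Thy1*, a surface protein of both neurons and T cells, had 484, 619 and 558 FPKM in brain and 113, 101 and 94.2 in spleen, the smallest difference of the 19 at 2.43 (standard error 0.17). *Nrgn*, a calmodulin-binding protein of the postsynapse, had 693, 585 and 699 FPKM in brain and 28.9, 24.9 and 31.1 in spleen, even in both. *Nefm* had the largest, at 9.51. *Dpp6*, an auxiliary subunit of potassium channels that is not among the 19, differed by 9.58, with 87.3, 89.6 and 64.2 FPKM in brain and 0.00252, 0.00149 and 0.00858 in spleen.

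Myelin and astrocyte genes were higher in brain with few exceptions. Of 15 myelin and oligodendrocyte genes 14 passed, 13 of them at 4-fold and more, with a median of 6.56, or 7.07 without the 2 libraries named above. Myelin basic protein (*Mbp*) had 1416, 1479.9 and 1025 FPKM in brain and 15.9, 21.7 and 22.9 in spleen, a difference of 6.01 (standard error 0.22, adjusted p = 1.22e-06 with limma). Its spleen level was even. *Mobp*, another compact myelin protein, had 210.2, 261 and 162 FPKM in brain and 0.0587, 0 and 1.06 in spleen. *Cnp*, an enzyme of the myelin sheath, was the least different that passed, with 84.4, 90.2 and 95.8 FPKM in brain, 50.1, 54.4 and 54.6 in spleen and a difference of 0.76 (standard error 0.12). Transferrin (*Trf*), the iron carrier that oligodendrocytes also make, had 93.5, 105 and 175 FPKM in brain and 64.1, 75.4 and 98.4 in spleen. The groups overlapped and it did not pass (0.62, standard error 0.28, adjusted p = 0.084 with limma), but passed after rescaling to TPM (0.81).

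Of 17 astrocyte genes 15 passed with a higher level in brain, 14 at 4-fold and more, with a median of 7.06, or 7.48 without the 2 libraries. The glutamate uptake carrier *Slc1a2* had 217, 251 and 206 FPKM in brain and 0.240, 0.116 and 0.741 in spleen, a difference of 9.15 (standard error 0.47). The water channel *Aqp4* had 60.8, 68.3 and 51.1 FPKM in brain and 0.199, 0.103 and 0.705 in spleen. In spleen replicate 3 both were over 3-fold above the other spleens, and still under 2% of any brain. Glutamine synthetase (*Glul*), which clears ammonia and glutamate in many tissues, had 461, 449.7 and 598 FPKM in brain and 68.2, 74.9 and 83.4 in spleen, a difference of 2.73. *Gja1*, a gap junction protein, had 84.3, 89.5 and 70.3 FPKM in brain and 27, 28.3 and 35.8 in spleen, a difference of 1.42. The 2 genes that did not pass were among the most abundant in both organs. *Apoe*, a lipid carrier that astrocytes and macrophages both secrete, had 689, 933 and 1039 FPKM in brain and 735, 848 and 786 in spleen, a difference of 0.15 (standard error 0.24, adjusted p = 0.591 with limma). *Clu*, a secreted chaperone, had 432, 423 and 399 FPKM in brain and 412, 338 and 341 in spleen, a difference of 0.21 (adjusted p = 0.308). For both, brain and spleen values overlapped.

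**Figure D3:**
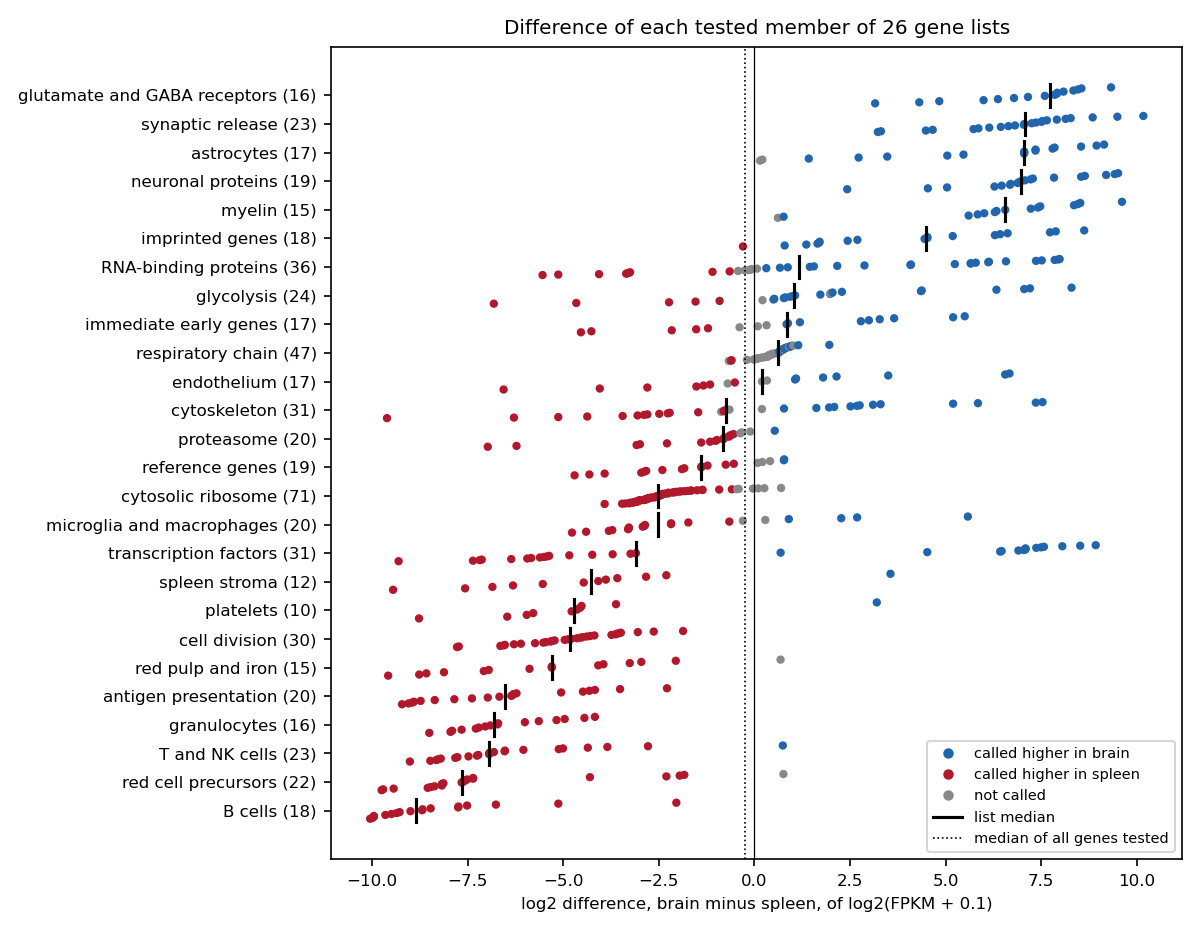
Log2 difference, brain minus spleen, of every tested member of each gene list, with the number of members in brackets, coloured by the call of limma over all genes, with the list median as a black bar and the median of all genes tested as a dotted line. Neuronal, myelin and astrocyte lists lie right of 0 with medians of 6.56 to 7.73, lymphocyte, red cell and granulocyte lists left of it with medians of -8.84 to -6.81, and endothelium, cytoskeleton and glycolysis lists have members on both sides.

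Macrophages live in both organs, and their shared genes were mostly higher in spleen. Of 20 genes of microglia and macrophages 14 passed with a higher level in spleen, 12 of them at 4-fold and more, 4 passed with a higher level in brain and 2 did not pass, with a median of -2.52. *Csf1r*, the receptor of the growth factor that macrophages need to survive, had 14.2, 14.7 and 15.1 FPKM in brain and 107, 114 and 114 in spleen, a difference of -2.92 (standard error 0.11, adjusted p = 1.15e-06 with limma). The complement component *C1qa* had 24.6, 27.5 and 27.3 FPKM in brain and 258, 269 and 251 in spleen. Values were even within each tissue for both. Adaptor *Tyrobp* differed by -4.77 and *Emr1*, which encodes the macrophage antigen F4/80, by -4.40. The 4 genes higher in brain and the 2 that did not pass include several known from microglia. *Tmem119* had 4.76, 5.35 and 3.20 FPKM in brain and 0.893, 0.836 and 0.736 in spleen, a difference of 2.27. The lipid receptor *Trem2* had 3.70, 4.0 and 10.3 FPKM in brain and 0.492, 0.928 and 0.896 in spleen, a difference of 2.69, with brain replicate 3 highest. *Sall1*, a factor of microglial identity that neural and kidney cells can also use, had 9.18, 9.57 and 6.36 FPKM in brain and 0.0420, 0.0409 and 0.163 in spleen, a difference of 5.58. *P2ry12*, the purine receptor that microglia share with platelets, had 18.2, 16.9 and 12.3 FPKM in brain and 14.5, 11.9 and 12.1 in spleen, overlapping, with a difference of 0.29 (standard error 0.18, adjusted p = 0.186). Without brain replicate 3 its difference was 0.45 and passed. *Cx3cr1*, the fractalkine receptor, had 8.61, 7.75 and 5.98 FPKM in brain and 11.1, 8.41 and 8.07 in spleen and did not pass either. The other gene that was higher in brain was *Sparc*, a matrix protein that many cells make (0.90).

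Vessel genes were found on both sides. Of 17 endothelial genes 7 passed in each direction, near the 35.4% and 43.6% of all genes tested, and 3 did not pass, with a median of 0.20, which was -0.51 when 1 FPKM was required in every library and -0.16 at a mean of 5 FPKM. Those higher in brain included transporters of the blood-brain barrier. The organic anion carrier *Slco1a4* had 13.2, 12.7 and 14.5 FPKM in brain and 0, 0.00804 and 0.116 in spleen, a difference of 6.67, and the thyroid hormone carrier *Slco1c1* differed by 6.56. *Mfsd2a*, a lipid transporter of the barrier, differed by 3.50. Those higher in spleen included genes of sinusoidal and open vessels. The scavenger receptor *Stab2* had 0.0859, 0.138 and 0.0692 FPKM in brain and 18.8, 19.4 and 17 in spleen, a difference of -6.56 (standard error 0.18), and *Plvap*, which forms the diaphragms of vessel pores, had 5.36, 5.88 and 3.49 FPKM in brain and 66.2, 79.6 and 99.5 in spleen, a difference of -4.04. The tight junction gene *Cldn5* did not pass. It had 43, 29.8 and 43.2 FPKM in brain and 29.4, 35 and 35.5 in spleen, a difference of 0.20 (standard error 0.18). *Pecam1*, found on endothelium, platelets and leukocytes, differed by -2.80, and *Cdh5*, the junction cadherin of vessels, by -1.16, whereas *Emcn*, a surface sialoprotein of endothelium, differed by 2.15.

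The choroid plexus, which makes the cerebrospinal fluid, was represented in every brain library. Of 14 genes of choroid plexus and pituitary 7 reached the filter, all of them choroid plexus genes, 6 higher in brain and 1 in spleen, with a median of 4.71 that was -1.60 when 1 FPKM was required in every library. Transthyretin (*Ttr*), its most abundant secreted protein, had 373, 593 and 632 FPKM in brain and 0.411, 0.0336 and 8.42 in spleen, a difference of 9.28 (standard error 1.40), with spleens that spread over 100-fold. *Kl*, klotho, had 8.27, 7.90 and 5.45 FPKM in brain and 0.00617, 0 and 0.0982 in spleen. *Aqp1*, a water channel of both choroid plexus and red cells, went the other way, with 1.43, 1.65 and 1.14 FPKM in brain and 38, 92.7 and 136 in spleen. The 5 pituitary hormone markers summed to at most 1.44 FPKM in the *Norad*+/+ brains, and to 1333 in 1 *Norad*-/- brain.

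B cell genes had the largest median difference of the 30 lists. All 18 B cell genes were at least 4-fold higher in spleen, where 17.7% of all genes tested had that call, with a median of -8.84, and -9.45 without the 2 libraries. *Ms4a1*, which encodes CD20, had 0, 0.542 and 0.0627 FPKM in brain and 249, 206 and 199 in spleen, a difference of -9.95 (standard error 0.64, adjusted p = 9.46e-06 with limma). Brain replicate 2 alone was above 0.5 FPKM, and the spleens lay within 1.5-fold. *Cr2*, the complement receptor of follicular dendritic and B cells, differed by -8.69, and *Pax5*, the factor that holds B cell identity, by -7.75. The smallest difference was that of *Ebf1*, a factor that B cells share with neural and stromal cells, at -2.04 with 6.71, 7.38 and 5.80 FPKM in brain and 33.2, 27.7 and 22.5 in spleen.

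Of 23 T and NK cell genes 22 were at least 4-fold higher in spleen, with a median of -6.93. The T cell receptor subunit *Cd3e* had 0.0397, 0.313 and 0.0487 FPKM in brain and 51, 40.3 and 42.9 in spleen, and *Cd8a*, the co-receptor of cytotoxic T cells, 0, 0.121 and 0.0264 FPKM in brain and 35, 28.8 and 31.9 in spleen. *Gzma*, a granzyme of killer cells, had 0, 0.123 and 0 FPKM in brain and 45.6, 45.9 and 47.7 in spleen. Brain replicate 2 was the highest brain for each of these, and all spleens were over 100 times higher. *Cd4*, which macrophages and microglia can also carry, stood higher in brain than the other receptor genes, at 3.0, 2.39 and 3.67 FPKM against 50.8, 42.5 and 39.8 in spleen, a difference of -3.85. *Bcl11b*, a factor of T cells and of cortical and striatal neurons, was the exception. It had 13.2, 11.3 and 18.7 FPKM in brain and 10.5, 7.11 and 7.81 in spleen and passed with a higher level in brain (0.74, standard error 0.23, adjusted p = 0.0233 with limma). It did not pass without spleen replicate 2 (0.63) or spleen replicate 3 (0.69).

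Genes of antigen presentation were all higher in spleen, including those that every nucleated cell can use. The 20 genes of the list were at least 4-fold higher, with a median of -6.51. *B2m*, the light chain of class I molecules, had 249, 223 and 223 FPKM in brain and 4683, 4639 and 4511 in spleen, a difference of -4.32 (standard error 0.21). The class I heavy chain *H2-K1* had 11.3, 12.7 and 8.98 FPKM in brain and 878, 846 and 884 in spleen, so the heavy chain differed by more (-6.30) than the light chain. *Cd74*, the invariant chain of class II, had 3.16, 12.7 and 4.19 FPKM in brain and 3599.9, 3282 and 3179.8 in spleen, a difference of -9.22, and the class II chain *H2-Aa* differed by -9.05. Brain replicate 2 was the highest brain library for both class II genes. The regulators differed as well. *Nlrc5*, the transactivator of class I, had 0.120, 0.152 and 0.106 FPKM in brain and 27.7, 23.1 and 18.5 in spleen, and *Ciita*, that of class II, had 0.340, 0.369 and 0.250 FPKM in brain and 32.6, 36 and 31.4 in spleen. The H2 genes are a family of similar sequence, and only uniquely mapped reads were kept, so their levels may be understated.

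Most proteasome genes were higher in spleen, and those at 4-fold and more were subunits of the immune form and its cap. Of 20 genes 16 passed with a higher level in spleen, 5 at 4-fold and more, 1 with a higher level in brain and 3 did not pass, with a median of -0.81. The 5 were *Psmb8*, *Psmb9* and *Psmb10*, the catalytic subunits that interferon induces, and *Psme1* and *Psme2*, which form their activator cap. *Psmb8* had 0.945, 1.25 and 1.30 FPKM in brain and 102, 87.9 and 91.6 in spleen, a difference of -6.22 (standard error 0.15). Its standard counterpart *Psmb5* had 6.51, 5.97 and 8.24 FPKM in brain and 7.65, 8.53 and 9.78 in spleen, overlapping (-0.33, adjusted p = 0.113 with limma), although it passed without brain replicate 3 (-0.46). Another 11 genes passed with a higher level in spleen below 4-fold, among them *Psmb6*, the standard counterpart of *Psmb9*, at -0.60. *Psmb6* did not pass after rescaling to TPM (-0.41) or without brain replicate 1 (-0.46), spleen replicate 2 (-0.61) or spleen replicate 3 (-0.51). *Psma3* was the 1 gene with a higher level in brain (0.53).

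Red cell precursor genes were much higher in spleen and uneven between the spleens. Of 22 genes 21 passed with a higher level in spleen, 19 at 4-fold and more, with a median of -7.64. *Klf1*, the factor that switches on adult globin, had 0.103, 0.193 and 0.0352 FPKM in brain and 20.5, 71.9 and 131 in spleen, a difference of -8.17 (standard error 0.68, adjusted p = 3.29e-05 with limma). Spleen replicate 1 was the lowest of the 3, by over 2-fold, and spleen replicate 3 the highest. Over 4 red cell markers (*Alas2*, *Slc4a1*, *Klf1* and *Gata1*) the summed FPKM was 348, 894 and 1081 in the 3 spleens and 1.58 to 2.57 in the brains. In the *Norad*-/- spleens it was 50.7, 43.2 and 454, and the list median in *Norad*-/- mice was -4.32. *Klf1* had 1.23, 0.833 and 42.6 FPKM in those 3 spleens. Some red cell genes have other uses in brain. Carbonic anhydrase 2 (*Car2*), also made by oligodendrocytes, had 102, 118 and 85.1 FPKM in brain and 233, 628 and 839 in spleen, a difference of -2.30, and in *Norad*-/- mice, with 16.8, 10.9 and 312 FPKM in spleen, the difference was 1.45 and had the other sign. Beta spectrin (*Sptb*) had 20.1, 21.4 and 22.8 FPKM in brain and 5.66, 15.2 and 23.2 in spleen and did not pass (0.76, standard error 0.48), except without spleen replicate 3 (1.2). The call for *Car2* was lost with 12 libraries in the fit. The level of red cell markers moved with these differences between genotypes, and its part was not tested.

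Globins were among the most abundant transcripts of each spleen. *Hbb-b1* had 33.8, 38.2 and 34.4 FPKM in brain and 3897, 10172 and 8619 in spleen, a difference of -7.62 (standard error 0.38), and *Hba-a1* had 17.2, 19.8 and 19.6 FPKM in brain and 1613, 4625 and 4033 in spleen. The tables list the adult globins under 6 names with values that lie close together in pairs, such as *Hbb-b1* with *Hbb-bs* and *Hba-a1* with *Hba-a2*. These are near-identical copies or second names, so their levels are uncertain. The 6 names took 4.81%, 11.4% and 9.14% of the summed FPKM in the 3 spleens and 0.0402% to 0.0496% in the brains. *Hbb-bs* had 3848, 10045 and 8511 FPKM in the 3 spleens, close to *Hbb-b1*, so these shares can count the same transcripts more than once. The 10 most abundant genes, several of them globin names in spleen, took 9.05%, 15.1% and 13.2% in spleen, and 3.63%, 3.61% and 4.35% in brain. Brain was led by *Fth1*, *Mbp* and *Vamp2* in replicate 1, and spleen by *B2m*, *Hbb-b1*, *Hbb-bs*, *Cd74* and *Tmsb4x* in replicate 1. At least 1 FPKM was reached by 12921 to 13041 genes in brain and by 12298 to 12597 in spleen. Leaving the 50 most abundant genes out of the scaling gave 4977 genes higher in brain and 6228 in spleen.

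Granulocyte and platelet genes were higher in spleen and also uneven among the spleens. All 16 granulocyte genes were at least 4-fold higher in spleen, with a median of -6.81, and -4.95 in *Norad*-/- mice. *S100a8*, a calcium-binding protein of neutrophils, had 2.37, 3.06 and 3.01 FPKM in brain and 409.8, 1074 and 833 in spleen. *Ngp*, a granule protein of maturing neutrophils, had 0.610, 0.985 and 0.512 FPKM in brain and 77.8, 368 and 227 in spleen, over 4-fold apart between spleens. *Ctsg*, a granule protease, was listed at 0 in the 3 brains and at 2.32, 7.91 and 6.28 FPKM in spleen. Spleen replicate 2 was highest and replicate 1 lowest for these genes. The globins *Hbb-b1* and *Hba-a1* had the same order, while *Klf1* and the summed red cell markers were highest in replicate 3. Of 10 platelet and megakaryocyte genes 9 were at least 4-fold higher in spleen, with a median of -4.71, which was 3.20 when 1 FPKM was required in every library and few members were left. The chemokine *Pf4* of platelet granules had 0.467, 0.424 and 0.292 FPKM in brain and 24.2, 71.1 and 46.3 in spleen, a difference of -6.46. *Gp1bb*, a subunit of the platelet receptor for von Willebrand factor, was the exception, with 65.1, 63.2 and 48.8 FPKM in brain, 8.19, 5.19 and 5.81 in spleen and a difference of 3.20 (standard error 0.21).

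Genes of red pulp macrophages and iron recycling were higher in spleen and more even among spleens. Of 15 such genes 14 were at least 4-fold higher in spleen, with a median of -5.30. *Spic*, the factor that red pulp macrophages require, had 0.124, 0.373 and 0 FPKM in brain and 76.3, 78.6 and 98.6 in spleen, a difference of -8.58 (standard error 0.53). Heme oxygenase (*Hmox1*), which opens heme, had 2.24, 3.18 and 2.02 FPKM in brain and 301, 289.7 and 459 in spleen, and the iron exporter ferroportin (*Slc40a1*) had 2.33, 2.32 and 1.57 FPKM in brain and 125, 111 and 144 in spleen. *Marco*, a scavenger receptor of the marginal zone, had 0.0427, 0.245 and 0.0704 FPKM in brain and 154, 145 and 168 in spleen and differed by -9.58. The ferritin chains, which store iron, parted. The light chain *Ftl1* had 18.2, 20.7 and 12.2 FPKM in brain and 215, 247 and 325 in spleen, a difference of -3.95. The heavy chain *Fth1*, the most abundant transcript of 2 brain libraries, had 1723, 1258 and 2208 FPKM in brain and 720.4, 958 and 1672 in spleen. It overlapped and did not pass (0.68, standard error 0.40, adjusted p = 0.159 with limma), but passed after rescaling to TPM (0.88).

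Genes of spleen patterning and stroma were higher in spleen with 1 exception. Of 16 listed genes 12 were tested, and 11 were at least 4-fold higher in spleen, with a median of -4.27. *Tlx1*, without which no spleen forms, had 0.0493, 0.0537 and 0 FPKM in brain and 13.9, 11.5 and 21.7 in spleen, a difference of -6.85. The homeobox gene *Nkx2-3* was listed at 0 in all 3 brains and at 3.92, 4.58 and 5.20 FPKM in spleen, and *Nkx2-5* at 0 and at 1.51, 2.76 and 2.24. *Cxcl13*, the chemokine of B cell follicles, had 0.120, 0.679 and 0.0606 FPKM in brain and 273, 144 and 240.0 in spleen, with brain replicate 2 highest of the brains. *Cxcl12*, which holds blood precursors in their niche and is also made in brain, had 14.6, 16 and 13.2 FPKM in brain and 187, 168 and 174 in spleen. Podoplanin (*Pdpn*), a surface protein of stromal cells, was the exception, with 9.26, 8.02 and 10.1 FPKM in brain, 0.955, 0.680 and 0.477 in spleen and a difference of 3.56 (standard error 0.24).

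Genes of cell division were higher in spleen throughout. All 30 passed, 29 of them at 4-fold and more, with a median of -4.83, and -3.66 in *Norad*-/- mice. *Mki67*, the Ki-67 antigen of cycling cells, had 0.265, 0.445 and 0.325 FPKM in brain and 50.4, 106 and 151 in spleen, a difference of -7.73 (standard error 0.40). *Top2a*, which untangles DNA in mitosis, had 0.321, 0.294 and 0.514 FPKM in brain and 30, 50.2 and 67.4 in spleen. Spleen replicate 1 was lowest and replicate 3 highest for both, in the order of the red cell markers. Replication helicase genes (*Mcm2* to *Mcm7*) differed by -3.49 to -5.52 and kept 0.684 to 4.09 FPKM in brain. *E2f1* had the smallest difference, -1.87.

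Cytosolic ribosomal protein genes, needed in every cell, were higher in spleen. Of 81 such genes 71 reached the filter, and 65 passed with a higher level in spleen, 54 at 4-fold and more, against 43.6% and 17.7% of all genes tested. The median was -2.52, and -2.38 after rescaling to TPM. *Rpl8* had 73.3, 80.1 and 98.5 FPKM in brain and 488, 582 and 670.0 in spleen, a difference of -2.79 (standard error 0.20). *Rps3* had 124, 142 and 90.2 FPKM in brain and 773, 853 and 899 in spleen, a difference of -2.85. Together the family took 0.536% to 0.622% of the summed FPKM in brain and 2.92% to 3.08% in spleen. Levels in this family are uncertain, since reads shared with processed pseudogenes were dropped. In the longest transcript of the 81 genes a median of 23.2% of 75-base stretches occurred in another gene, with 14 genes at 50% or more, but 4.02% in *Rpl8* and 2.28% in *Rps3*.

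Most genes often taken as references for quantitative PCR differed between these organs, as did most of all genes tested. Of 19 tested, 14 passed with a higher level in spleen, 2 with a higher level in brain and 3 did not pass, with a median of -1.39. Of all genes tested, 43.6% and 35.4% had the first 2 calls and 2987 of 14216 did not pass. Beta actin (*Actb*) had 203, 207 and 162 FPKM in brain and 1463, 1327 and 1417 in spleen, a difference of -2.89 (standard error 0.19). The 2 higher in brain were *Pgk1*, with 67.5% of its stretches shared with other genes, and *Sdha*. Those that did not pass included *Ywhaz* and *Hprt*, and the second passed without brain replicate 1 (0.62). *Ywhaz* had 101, 101 and 52.7 FPKM in brain, with replicate 3 lowest, and 71.3, 68.8 and 71.4 in spleen, and passed without that library (0.52). *Gapdh* did not reach the filter, and 108 of the 111 genes that share stretches with it are pseudogenes, so no level is given.

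Across all genes, 3098 (21.8%) had a 95% interval of the difference that lay within 1 of 0, and 589 within 0.5. Of those with at least 20 FPKM in all 6 libraries, 114 lay within 0.5. The 10 with the narrowest intervals included *Kansl1*, *Adprh*, *Map2k7*, *Fmr1*, *Dcaf7*, *Dusp7*, *Smarca4*, *Msl1* and *2610507B11Rik*. *Dcaf7*, an adaptor of ubiquitin ligases and kinases, had 31.8, 32.1 and 30.3 FPKM in brain and 30.1, 31.9 and 31.3 in spleen, a difference of 0.01 (95% interval -0.23 to 0.26). *Smarca4*, the BRG1 motor of chromatin remodelling, had 32.6, 30.8 and 33.5 FPKM in brain and 28.6, 29.4 and 29.2 in spleen, a difference of 0.15 (-0.09 to 0.40). *Fmr1*, an RNA-binding protein of synapses and other tissues, had 22.5, 24.1 and 23.6 FPKM in brain and 24.8, 23.8 and 25.4 in spleen (-0.08, -0.32 to 0.17). These rank the genes by precision and are no test of equality.

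Most respiratory chain genes did not pass, and those that did differed by small amounts. Of 47 respiratory chain genes 17 passed with a higher level in brain, 2 with a higher level in spleen and 28 did not pass, where 35.4% of all genes tested passed with a higher level in brain, 43.6% with a higher level in spleen and 2987 of 14216 did not pass. None passed at 4-fold, with a median of 0.62, or 0.82 after rescaling to TPM. *Ndufa10*, of complex I, had 74.8, 73.3 and 96.3 FPKM in brain and 35.1, 41.8 and 50.3 in spleen, a difference of 0.94 (standard error 0.19). Cytochrome c (*Cycs*), which carries electrons between complexes, had 1.55, 1.56 and 1.90 FPKM in brain and 0.363, 0.346 and 0.352 in spleen, the largest difference of the list at 1.96. Other genes share 26.14% of the stretches of *Cycs* and 25.04% of those of *Cox7c*, named next. Only uniquely mapped reads were kept, so the levels of both may be understated, and the effect on their differences was not tested. *Sdhd* and *Cox7c* were the 2 higher in spleen, with differences of -0.60 and -0.61. Neither passed after rescaling to TPM (-0.40 and -0.45), and *Sdhd* did not pass without brain replicate 1 (-0.64) or 3 (-0.45), or spleen replicate 2 (-0.60) or 3 (-0.46). Of 24 genes of glucose and creatine metabolism 17 passed with a higher level in brain, 8 at 4-fold and more, and 5 with a higher level in spleen, 3 at 4-fold and more. Creatine kinase B (*Ckb*), which buffers ATP, had 315, 344 and 349 FPKM in brain and 14.1, 13.3 and 22 in spleen, and its mitochondrial partner *Ckmt1* had 111, 125 and 161 FPKM in brain and 0.164, 0.0753 and 1.45 in spleen. *Pklr*, the pyruvate kinase of red cells and liver, had 0.0451, 0.0160 and 0.0723 FPKM in brain and 8.05, 18.9 and 26.7 in spleen, in the order of the red cell markers. *Hk3*, a hexokinase of myeloid cells, had 0.229, 0.231 and 0.279 FPKM in brain and 7.18, 9.52 and 9.43 in spleen.

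Related genes were set side by side in 29 pairs, the first chosen as the form expected in nerve tissue. Some first genes, such as *Rac1* and the standard proteasome subunit *Psmb5*, are forms of most cells set against forms of blood or immune cells. In 28 pairs both genes belong to 1 family, and *Hpca* with *Anxa1* sets 2 calcium-binding proteins of different families together. The pairs were chosen for a contrast between the tissues with earlier results known, so their counts describe these pairs and say nothing of how common such exchanges are. The ratio of the first to the second was higher in every brain than in every spleen for 28 of the 29. In 18 pairs the form that led in all 3 brains was not the one that led in all 3 spleens, and in 15 the first passed with a higher level in brain while the second passed with a higher level in spleen. The 18 include *Rac1* with *Rac2* and *Psmb5* with *Psmb8*, whose first genes did not pass. FPKM is per length, so the members of a pair can be set side by side, within a limit. Sequence shared with other genes can lower 1 member more than the other and so move the ratio. The share of such stretches was 65.4% in *Eno1* and 0% in *Eno2*, 41.7% in *Eef1a1* and 0% in *Eef1a2*, and 40% in *Psmb5* and 0% in *Psmb8*. Its effect on the ratios was not tested. The exception in direction was the pair of glucose transporters *Slc2a1* and *Slc2a3*, whose log2 ratios of 0.46 to 0.80 in brain and 0.18 to 0.59 in spleen overlapped.

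**Figure D4:**
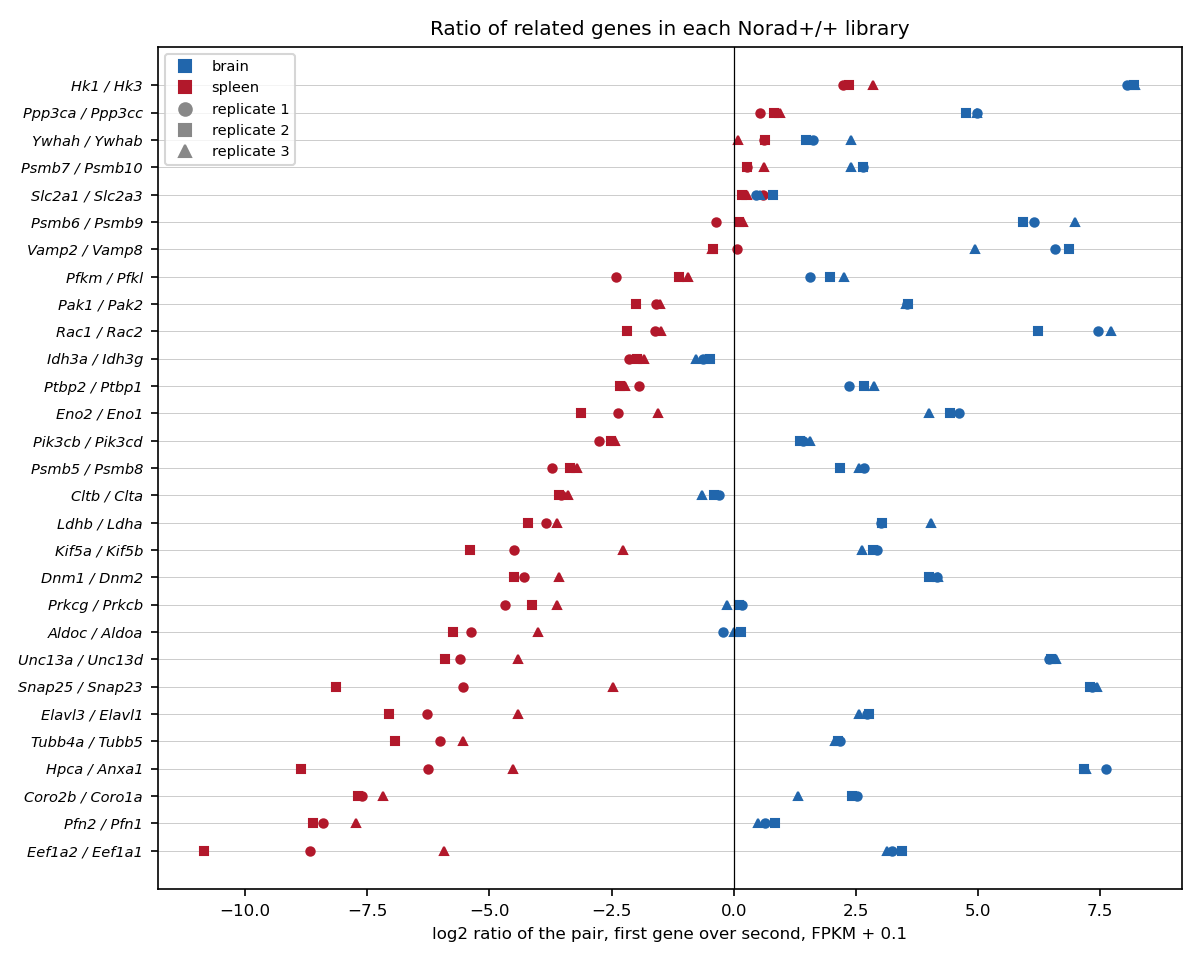
Log2 ratio of the first to the second gene of 29 pairs of related genes in each *Norad*+/+ library, with brain in blue, spleen in red and the symbol giving the replicate. Brain lies right of spleen in every pair but *Slc2a1* / *Slc2a3*, and points on opposite sides of 0 mark the 18 pairs whose leading form changes.

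Such exchanges were seen in the membrane fusion machinery. *Snap23*, the form of most cells, had 5.65, 6.25 and 6.53 FPKM in brain and 30.5, 40.6 and 39.6 in spleen, the reverse of *Snap25* above. The syntaxin *Stx11*, which killer cells need to release granules, had 0.139, 0.125 and 0.158 FPKM in brain and 20.2, 19 and 23.8 in spleen. *Unc13a*, which primes synaptic vesicles, had 50, 45.7 and 47.7 FPKM in brain and 0.240, 0.191 and 0.676 in spleen, whereas *Unc13d*, which primes the granules of killer cells, had 0.475, 0.409 and 0.395 FPKM in brain and 16.5, 17.5 and 16.4 in spleen. In the pairs of *Snap25* with *Snap23* and of *Unc13a* with *Unc13d* the synaptic form passed with a higher level in brain and its relative with a higher level in spleen. Dynamins, which pinch off vesicles, were led by *Dnm1* in brain at 287, 289.7 and 326 FPKM and by *Dnm2* in spleen at 55.3, 59.6 and 60.5 FPKM.

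Pairs of metabolic and structural genes were among those compared. *Ldhb*, the lactate dehydrogenase that favours pyruvate, had 262, 341 and 529 FPKM in brain and 4.05, 3.36 and 6.21 in spleen, and *Ldha* 32.4, 41.4 and 32.3 FPKM in brain and 59, 63.7 and 77 in spleen. The neuronal enolase *Eno2* had 294, 325 and 244 FPKM in brain and 1.54, 1.04 and 3.77 in spleen. The elongation factor *Eef1a2* of neurons and muscle had 466, 571 and 398 FPKM in brain and 0.491, 0.0449 and 4.41 in spleen, and *Eef1a1*, with 41.7% of its stretches shared, 49, 52.7 and 45.2 FPKM in brain and 241, 264 and 275 in spleen. Profilins bind actin monomers, and *Pfn2* had 173, 182 and 238 FPKM in brain and 3.67, 2.15 and 4.53 in spleen, whereas *Pfn1* had 111, 102 and 169 FPKM in brain and 1278, 879.6 and 981 in spleen. Of 31 cytoskeleton genes 13 passed with a higher level in brain and 15 with a higher level in spleen, 10 and 11 of them at 4-fold and more. The first 2 counts lie near the shares of all genes tested, 35.4% and 43.6%. The actin-bundling protein *Lsp1* of leukocytes had 0.247, 0.340 and 0.306 FPKM in brain and 322, 309 and 296 in spleen, the largest difference of the list at -9.61 (standard error 0.13). *Coro1a*, the coronin of leukocytes, had 11.8, 11.9 and 14.9 FPKM in brain and 269, 269 and 261 in spleen, and *Tubb4a*, a tubulin of neurons and myelin, 661, 727 and 557 FPKM in brain and 3.23, 1.68 and 6.94 in spleen. *Rac1*, a GTPase of most cells, had 99.2, 94.4 and 96.8 FPKM in brain and 82.5, 84 and 90.9 in spleen and did not pass (0.18, adjusted p = 0.213 with limma), while *Rac2*, that of blood cells, had 0.468, 1.16 and 0.358 FPKM in brain and 253, 379 and 255 in spleen.

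Among RNA-binding proteins the neuronal members of several families led in brain. Of 36 genes 21 passed with a higher level in brain, 16 at 4-fold and more, and 9 with a higher level in spleen, 7 at 4-fold and more. Over all genes tested the 4 shares were 35.4%, 20.5%, 43.6% and 17.7%, so the last count lies near its share. The list median of 1.16 was -0.11 when 1 FPKM was required in every library. *Ptbp1*, which represses neuronal exons in other cells, had 8.25, 6.94 and 5.84 FPKM in brain and 65.2, 75.6 and 75.5 in spleen, and *Ptbp2*, which replaces it in neurons, had 42.7, 44.9 and 43.3 FPKM in brain and 16.9, 14.9 and 16 in spleen. The Hu proteins *Elavl2*, *Elavl3* and *Elavl4* differed by 7.37, 7.94 and 7.85, and the widespread *Elavl1* by -0.65. *Srrm4*, which includes neuronal microexons, had 10.6, 9.0 and 7.13 FPKM in brain and 0, 0 and 0.102 in spleen. The decay factors *Zfp36*, *Zfp36l1* and *Zfp36l2*, which bind AU-rich messages in immune cells, differed by -5.54, -3.25 and -3.28. Brain replicate 3 was over 15-fold below the other brains for 2 of these genes. *Rbfox1*, a neuronal splicing factor, had 50.2, 76.1 and 2.93 FPKM in brain and 0.0220, 0.0132 and 0.0372 in spleen, a difference of 7.52, and 8.97 without that library. *Mbnl1*, a splicing factor of muscle and blood, had 32.1, 26.7 and 1.37 FPKM in brain and 98.7, 85.9 and 149 in spleen, a difference of -3.32 that was -1.88 without it. In the *Norad*-/- brains *Rbfox1* had 2.68, 2.66 and 2.64 FPKM and *Mbnl1* 1.35, 18.6 and 1.47, so all 3 lay near brain replicate 3 for *Rbfox1*, and all but replicate 2 for *Mbnl1*. *Mbnl1* did not pass when any 1 of the 3 spleen libraries was left out (-3.09 to -3.49).

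*Norad* and *Pum2*, which encodes a PUMILIO protein it binds, were present in both organs. *Norad*, listed as *2900097C17Rik*, had 206, 259 and 635 FPKM in brain and 62, 42.9 and 56.3 in spleen, a difference of 2.61 (standard error 0.43, adjusted p = 0.00113 with limma). Brain replicate 3 held the highest level and the groups did not overlap. In the *Norad*-/- libraries it was at most 0.0173 FPKM. *Pum2* had 17.2, 19.3 and 15.1 FPKM in brain and 35.6, 37.2 and 37.1 in spleen, a difference of -1.10 (standard error 0.13, adjusted p = 0.000196). Of 5 genes of *Norad* and its partners, *Norad* alone passed with a higher level in brain and *Pum2* alone with a higher level in spleen, and the list median of -0.14 was 0.05 after rescaling to TPM. *Epb4.1l1*, a membrane skeleton gene next to *Norad*, had 81.2, 69.4 and 30 FPKM in brain and 0.375, 0.375 and 0.693 in spleen, and *Cnbd2*, on the other side, 1.49, 1.63 and 1.80 FPKM in brain and 2.94, 2.38 and 2.23 in spleen. The neighbours differed by 6.62 and -0.58, and the second did not pass after rescaling to TPM (-0.41) or without brain replicate 1 (-0.52).

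Transcription factors divided by lineage. Of 31 tested, 15 passed with a higher level in brain and 16 with a higher level in spleen, and all but *Mef2c*, a factor of neurons, muscle and lymphocytes, were at least 4-fold apart. *Mef2c* differed by 0.69 and did not pass without brain replicate 2 (0.62), spleen replicate 2 (0.60) or spleen replicate 3 (0.55). *Neurod6*, of excitatory neurons, had 95.6, 82.2 and 157 FPKM in brain and 0.0595, 0 and 0.571 in spleen. *Ikzf1*, the Ikaros factor of lymphocytes, had 0.627, 0.886 and 0.641 FPKM in brain and 126, 113 and 103 in spleen, and *Spi1*, the PU.1 factor of myeloid and B cells, 1.32, 1.59 and 1.40 FPKM in brain and 55.4, 63.2 and 72.3 in spleen. *Rest*, which silences neuronal genes outside the nervous system, had 0.923, 1.07 and 1.08 FPKM in brain and 9.52, 12.9 and 9.46 in spleen, a difference of -3.24 (standard error 0.17). The groups of all 31 did not overlap, where 36.9% of all genes tested did not overlap with brain higher and 45.4% with spleen higher.

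Imprinted genes, which are read from 1 parental copy, were higher in brain in 17 of 18 cases, 12 at 4-fold and more, with a median of 4.49. Over all genes tested, 35.4% passed with a higher level in brain and 20.5% did so at 4-fold and more. *Meg3*, a maternally expressed noncoding RNA, had 468, 387 and 494 FPKM in brain and 0.676, 0.286 and 4.75 in spleen, and *Snrpn*, a paternally expressed splicing protein, 348, 369.5 and 397 FPKM in brain and 1.34, 0.660 and 3.44 in spleen. *Nnat*, neuronatin, had 163, 152 and 160.3 FPKM in brain and 1.92, 1.38 and 1.98 in spleen and even spleens. *Igf2r* was the 1 with a higher level in spleen (-0.30, adjusted p = 0.0477 with limma), at 5.22, 5.16 and 5.18 FPKM in brain and 6.60, 6.77 and 5.89 in spleen. It did not pass after rescaling to TPM (-0.11), nor when any 1 of the 3 brains (-0.30), spleen replicate 1 (-0.28) or spleen replicate 2 (-0.26) was left out. Of 14 long noncoding RNAs tested 8 were at least 4-fold higher in brain, 4 passed with a higher level in spleen and 2 did not pass, with a median of 4.96 that was -1.50 when 1 FPKM was required in every library. The share of all genes tested that passed with a higher level in spleen was 43.6%. *Snhg11* had 360.4, 327 and 319.7 FPKM in brain and 0.434, 0.157 and 4.24 in spleen. *Neat1*, the scaffold of paraspeckles, had 81.3, 98.9 and 93.1 FPKM in brain and 443, 375 and 433 in spleen, a difference of -2.19, whereas its neighbour *Malat1*, a nuclear RNA of most cells, had 378, 333 and 452 FPKM in brain and 510.1, 518 and 402 in spleen, overlapping (-0.30). *Gas5* and *Snhg1*, hosts of small nucleolar RNAs, were higher in spleen, with differences of -2.09 and -2.67. *Peg13* had 372, 387 and 77 FPKM in brain, again lowest in replicate 3.

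Immediate early genes, which cells switch on within minutes of a stimulus, went both ways. Of 17 tested, 9 passed with a higher level in brain, 6 at 4-fold and more, and 5 with a higher level in spleen, 3 at 4-fold and more. Shares over all genes tested were 35.4% and 20.5% for brain, and 43.6% and 17.7% for spleen. The spleen count at 4-fold lies near its share. *Arc*, of active synapses, had 58.4, 56.9 and 62.6 FPKM in brain and 1.49, 1.09 and 2.14 in spleen, a difference of 5.20, and *Egr1* had 154, 153 and 235 FPKM in brain and 20.8, 16.8 and 17.1 in spleen. *Klf2*, of resting lymphocytes and vessels, had 3.50, 3.13 and 4.40 FPKM in brain and 67.3, 72.6 and 75.6 in spleen, a difference of -4.26, and *Btg2*, which slows division, 21, 4.66 and 3.52 FPKM in brain and 185, 180.1 and 136 in spleen. Brain replicate 1 was the highest brain for *Btg2* by over 4-fold. *Ier2*, *Ier5* and *Klf4* were the other genes higher in spleen (-2.16, -1.52 and -1.21), and *Ier5* did not pass without spleen replicate 1 (-1.2) or 3 (-1.64).

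Genes higher in brain were longer in the genome, and the share of brain calls rose with span above 50 kb, with no rise below it. Gene models of GENCODE M21 on the same genome build were found for 98.9% of the genes tested. The median span from first to last base was 23.7 kb over all genes tested, 40.9 kb for genes at least 4-fold higher in brain and 15.9 kb for those at least 4-fold higher in spleen. A span of 100 kb or more was held by 14.5%, 30.3% and 6.77% of the 3 sets. Of 815 genes over 200 kb, 59.9% were at least 4-fold higher in brain and 4.17% in spleen, and of 1761 genes under 5 kb, 16.4% and 25.8%. The numbers of exons were alike, with medians of 9, 8 and 8. Longest transcripts had medians of 3377, 3895 and 2779 bases. The range within brain lists was wide. Median spans were 258.7 kb for the 16 glutamate and GABA receptor genes, 15.7 kb for the 15 myelin genes and 13.1 kb for the 17 astrocyte genes.

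**Figure D5:**
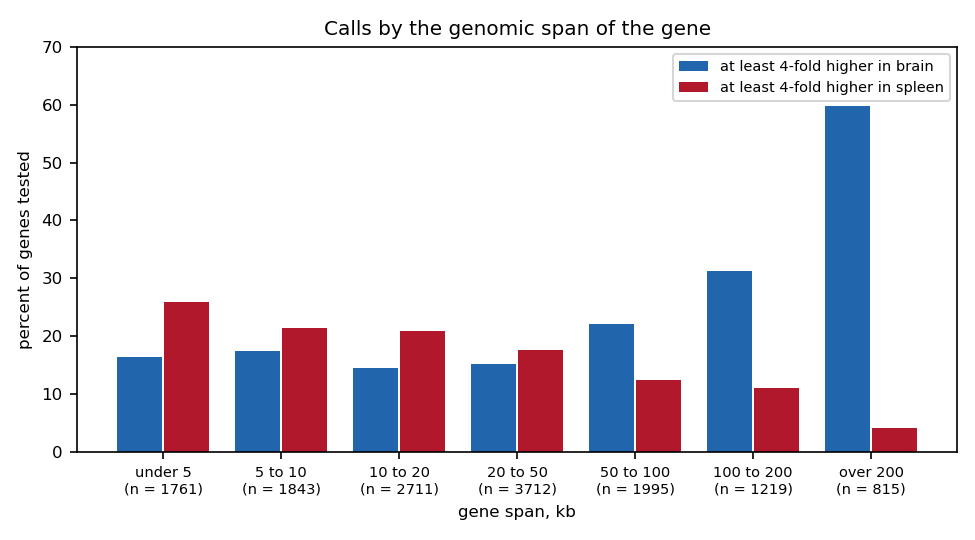
Percent of genes tested that were at least 4-fold higher in brain (blue) or in spleen (red), by the span of the gene in the genome in kb, with the number of genes in each class below. The share of brain genes is 14.5% to 17.5% in classes up to 50 kb and 59.9% above 200 kb, and the share of spleen genes falls from 25.8% to 4.17%.

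Brain genes also had longer 3' untranslated regions and more PUMILIO elements in them. For each gene the 3' region of the transcript with the longest coding sequence was taken, and the longer region where these tied. It had a median of 1002 bases over all genes tested, 1357.5 for brain genes and 714.5 for spleen genes. A region was known for 94.4%, 94.4% and 90.9% of them. The element UGUANAUA, searched on the transcribed strand, occurred at least once in 25.2%, 32.1% and 17.8%, and at 0.248, 0.267 and 0.225 per kb. The share of genes with an element thus differed by more than the number per kb. Genes with no element had a median difference of -0.33, those with 1 element 0.06, those with 2 to 3 elements 0.38 and the 130 genes with 4 or more 0.57, while the median length of the region rose from 763 to 4688.5 bases. Within classes of length the medians without and with an element were -0.56 and -0.47 under 500 bases, -0.39 and -0.18 from 500 to 1000, -0.16 and 0.15 from 1000 to 2000, and 0.07 and 0.48 above 2000. These are descriptions over genes, and no test was made of them.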

How the data were processed

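Poly(A) RNA of brain and spleen of *Norad*+/+ and *Norad*-/- mice was sequenced as stranded single reads of 75 bases. The authors aligned reads to GRCm38 with TopHat2 2.0.12 in default mode, kept uniquely mapped reads and estimated FPKM with StringTie 1.2.2, and deposited 1 table of FPKM per tissue, so counts of genes with near-identical copies are understated. The tables were joined on gene symbol. Values were analysed as log2(FPKM + 0.1) with limma 3.58.1 (variance trend, Benjamini-Hochberg adjustment over 14216 genes, two-sided, threshold 0.05) in R 4.3.3, after the script was checked on simulated data. Sequence and gene models came from RefSeq and GENCODE M21, matched for 23608 of 24062 genes.

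The gene lists, pairs and comparison were chosen with earlier results of these data known. Genes were named by rule (306 genes): the most abundant 15 and most different 10 in each direction, the 10 with the narrowest intervals near 0, the 5 most abundant of each list with all members called against its direction, all pairs, the 10 of smallest interaction p and those the study names. Some genes and gene pairs are not reported here. Other genes were named for their known roles after their values were seen. Alternatives covered added constants, filters, scalings, variance models and left-out libraries, and dropping the 2 libraries with most signal of the other tissue was chosen after seeing the data.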

Additional observations from a re-analysis of the deposited data

Results flagged for a closer look

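Of the genes named in the text, 2 had a tissue difference whose groups did not overlap in either genotype and pointed in opposite directions. The difference between genotypes itself was tested as an interaction over 12 libraries with limma, and neither passed (adjusted p = 0.116 for both). *Hspa1b*, a heat shock protein that stressed cells make, had 4.94, 3.85 and 1.25 FPKM in brain and 0.285, 0.520 and 0.649 in spleen in *Norad*+/+ mice, a difference of 2.41. In *Norad*-/- mice it had 0.490, 0.426 and 0.813 FPKM in brain and 13.5, 12.4 and 2.67 in spleen, a difference of -3.57. *Cmbl*, a hydrolase, had 3.06, 3.27 and 3.15 FPKM in brain and 4.93, 5.67 and 6.47 in spleen in *Norad*+/+ mice, a difference of -0.82, and 3.51, 4.45 and 5.30 in brain and 2.79, 2.75 and 3.27 in spleen in *Norad*-/- mice, a difference of 0.56. Among all genes tested, 9 that were higher in every *Norad*+/+ brain were higher in every *Norad*-/- spleen, and 19 showed the reverse.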

How the results depend on the processing

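The count of genes higher in brain, 5032, was 3343 at a mean of 5 FPKM and 2783 with 1 FPKM in every library. At 4-fold and more it was 1812 and 843 in place of 2913, and the spleen count, 2520, was 1023 in the second case. These filters test fewer genes and drop those near 0 in one tissue. Under every other alternative these 4 counts stayed within 1.5 times, but after rescaling to TPM the brain and spleen counts lay close together, at 5452 and 5484. Leaving out 1 library gave 4706 to 5100 genes higher in brain and 5721 to 6458 higher in spleen, and without brain replicate 2 and spleen replicate 3 there were 4692 and 5407. The count of the interaction, 0, was 15 with 1 FPKM added, 2 with 0.01 FPKM added, 3 after quantile normalization and 0 to 341 when 1 library was left out, and the cause was not tested.

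Libraries of the 2 tissues share replicate numbers. Deviations from the group mean had correlations of 0.027, 0.048 and 0.064 between same-numbered libraries and of -0.074 to 0.056, mostly below 0, between the others. Such small values cannot tell whether 2 libraries come from 1 mouse, and the numbers were not taken as pairs. With a replicate block 5024 genes were higher in brain and 6148 in spleen, and 0 passed the interaction.

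Of 4502 alternatives for 220 named genes, 4390 kept the direction and the side of the threshold and 12 changed sign, all at genes that had not passed. After rescaling to TPM *Fmr1* was 0.120, *Kansl1* 0.0175, *Map2k7* 0.0888 and *Msl1* 0.0968. Centred on the median gene, *Fmr1* was 0.0456, *Map2k7* 0.0143 and *Msl1* 0.0223. *Fmr1* was 0.0182 after quantile normalization and *Cldn5* -0.00937 with array weights. *Dcaf7* was -0.00528 when scaled without the 50 most abundant genes and -0.00989 to 0.0387 when 1 library was left out. Of 629 alternatives for the medians of 30 lists, 559 moved by less than 1 SD.

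The 3 libraries per group limit the precision, with a median standard error of 0.19, and levels of a few hundredths of 1 FPKM rest on single reads.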
